A study of Homo sapiens with 40 samples.

Results

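Single cells of T47D, a human luminal breast cancer cell line, differ in where they stand in the cell division cycle, and the 10 cells compared here were taken from the extremes of that difference. Each of 11 cells prepared with the G&T protocol was given a score, the mean of log2(CPM + 1) over 8 genes of G2 and mitosis (TOP2A, CDK1, CCNB1, CCNB2, AURKA, PLK1, CENPF and UBE2C), where CPM, the usual depth-scaled read count, sets every cell to the same total of reads on genes. The 5 cells with the highest score are called mitotic-high and the 5 with the lowest mitotic-low, and the cell in the middle was left out, so 10 of the 40 cells in the series were compared. Both sides were selected on the cells' own read counts. What the 8 genes show is therefore a description of the choice, and every other difference between the sides is described with no test.

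The series holds 13 cells prepared with G&T, 13 with Takara and 14 with NEB, all untreated T47D at passage 10 and sorted 1 per well. Genome & Transcriptome sequencing (G&T) separates the polyadenylated RNA of a cell from its DNA and makes full-length cDNA from the RNA, while SMART-seq HT (Takara) and NEBNext Single Cell/Low Input (NEB) are kits that also copy full-length transcripts. Each protocol was sequenced in 1 run. The labels name 1 line at 1 passage and no separate cultures or plates, so the cells of a side cannot be taken as independent replicates. The G&T cells C2 and F1, which did not pass the study's quality thresholds, were not scored. Cells are named by their well, and values of a side are given in ascending order of the score, which is D2, E2, H1, B1 and D1 for the mitotic-low cells and G1, A1, B2, E1 and A2 for the mitotic-high cells.

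A dividing cell copies its DNA in S phase, passes through G2, and separates the copies in mitosis. Cyclins bind the kinase CDK1 to start mitosis, kinesin motors and microtubule-binding proteins build the spindle, the kinetochore ties chromosomes to it, and the anaphase-promoting complex (APC/C) then marks cyclins and securin for destruction. Many of these genes are transcribed late in the cycle, from promoters that are held off in G1 by the DREAM complex, whereas replication genes are transcribed earlier under E2F factors. Human late genes often carry CCAAT boxes, bound by NF-Y, and a short element named CHR near the transcription start.

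**Figure D1:**
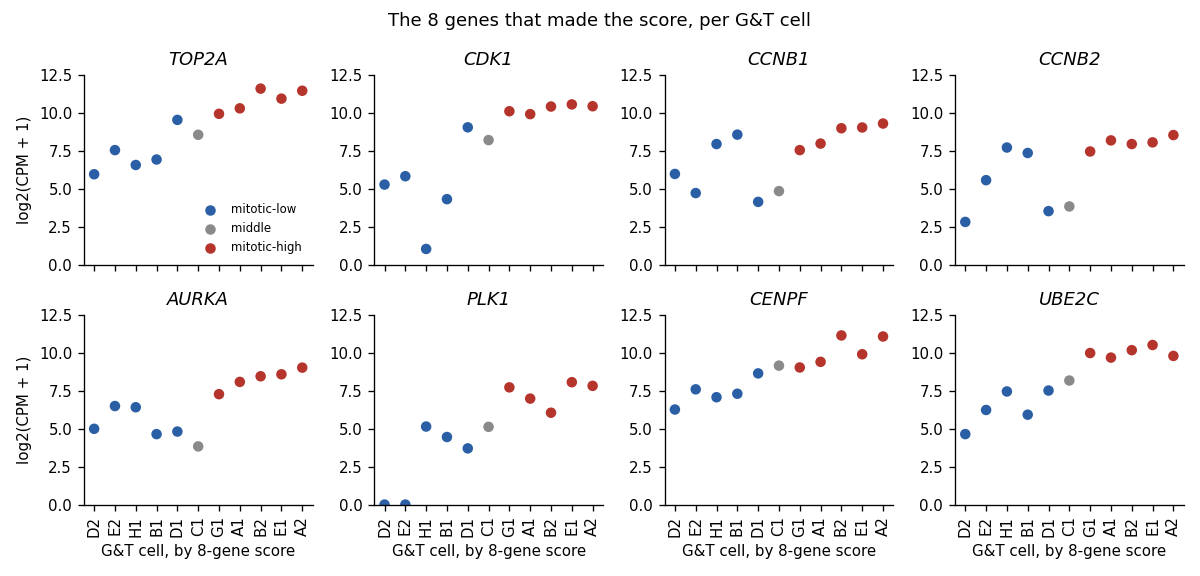
Expression of the 8 genes that made the score in each of the 11 scored G&T cells, as log2(CPM + 1), with cells in ascending order of the score. The 5 mitotic-high cells lie above the 5 mitotic-low cells for 6 genes, while CCNB1 overlaps through H1 and B1 and CCNB2 through H1.

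The scores of the mitotic-low cells were 4.49, 5.49, 6.16, 6.18 and 6.36, and those of the mitotic-high cells were 8.63, 8.81, 9.34, 9.45 and 9.68. The middle cell, C1, had a score of 6.46, next to the highest mitotic-low cell (D1, 6.36) and well below the lowest mitotic-high cell (G1, 8.63). The upper side was therefore set apart by a gap, and the lower side was not. CDK1, the kinase that starts mitosis, had 37.7, 55.4, 1.04, 18.9 and 526 CPM in the mitotic-low cells and 1094, 964, 1361, 1499 and 1379 CPM in the mitotic-high cells. PLK1, a kinase of mitotic entry and spindle assembly, had 0, 0, 34.2, 20.9 and 12 CPM against 209, 125, 65.3, 265 and 226 CPM. CCNB1, cyclin B1, had 61.7, 25.1, 244, 376 and 16.5 CPM against 185, 249, 503, 522 and 626 CPM, so its ranges overlapped through H1 and B1. Dropping any of the 8 genes from the score left all 5 mitotic-high cells in place. The mitotic-low side kept all 5 of its cells in 5 of these 8 scores and 4 of them without CDK1, PLK1 or UBE2C.

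The cells had been sorted as EpCAM+ and CD49f+, with a gate for cells negative for CD45 and CD31, so reads of EPCAM and ITGA6, which encodes CD49f, and the low levels of immune and endothelial markers were in part set by the sort. EPCAM, CDH1, KRT8, KRT18 and KRT19, which mark luminal epithelium, had reads in each of the 10 cells, with log2 ratios of mitotic-high over mitotic-low between -0.35 and 0.77. Markers of other cells were at or near 0. Of 6 immune genes 4 had no read in any of the 10 cells (CD3E, CD14, LYZ and CD68), and the summed level of the list was 0 to 14.4 CPM in mitotic-high and 0 to 27.0 CPM in mitotic-low cells. Of 4 endothelial genes CDH5 and KDR had no read, with sums of 0 to 8.88 and 0 to 25.5 CPM. Of 6 fibroblast genes COL3A1 and LUM had none, with sums of 1.52 to 47.2 and 3.14 to 18.9 CPM, and of 6 basal and myoepithelial genes KRT17 had none, with sums of 4.96 to 15.2 and 0 to 40.5 CPM. COL1A1, a fibroblast collagen, was the one of these markers that passed the filter on level, with a log2 ratio of 0.78 that was -0.12 without A2.

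The mitotic-high cells had smaller libraries. They held 672328 to 818577 reads on genes and on the ERCC spike-ins, and the mitotic-low cells 679915 to 1192383. Genes detected with at least 1 read overlapped, at 11102 to 12611 in mitotic-high and 9541 to 12794 in mitotic-low cells, and so did mitochondrial reads, at 9.18% to 21.7% and 12.8% to 19.1%. Reads that fell outside annotated genes made up 8.82% to 19.2% of all reads in mitotic-high and 5.46% to 23.2% in mitotic-low cells.

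The same amount of ERCC RNA was added to each well, so the reads on genes per ERCC read follow the RNA captured from a cell. They were 69.5, 70.1, 46.4, 71.5 and 72.2 in the mitotic-high cells and 45.3, 35.4, 39.1, 58.5 and 51.3 in the mitotic-low cells, with 54.6 in C1. The means were 65.9 ± 11 (SD, n = 5 cells) and 45.9 ± 9.29 (SD, n = 5 cells), a ratio of 1.44. Of the mitotic-high cells 4 lay above every mitotic-low cell, and B2 lay within the mitotic-low range although it had the third highest score. Leaving out 1 cell at a time gave ratios of 1.36 to 1.54. The score did not use ERCC reads. The sort gated for single cells, and whether a well held more than 1 was not tested.

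For each gene the reads of the 5 cells of a side were summed and put in CPM, 1 CPM was added, and the log2 ratio of mitotic-high over mitotic-low was taken. This was done for 8392 genes with a mean of at least 10 CPM over the 11 cells, without the 8 genes of the score. At least 2-fold higher were 1533 genes, 18.3% of those tested, and at least 2-fold lower were 752, or 8.96%. The median of all log2 ratios was 0.25, so ratios are read against that value rather than against 0. With TMM factors, which centre the bulk of genes, the median was 0.01 and the counts became 1042 higher and 1129 lower, so the excess of higher genes, 67.1% of all 2-fold calls, became 48.0%. Per ERCC read the median was 0.79 and 91.9% of 2-fold calls were higher.

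In 161 genes every mitotic-high cell lay above every mitotic-low cell (1.92% of genes tested), and in 62 genes every mitotic-high cell lay below (0.739%). These counts depended on single cells. Without the mitotic-low cell D1 they were 460 and 222, without B1 281 and 103, without the mitotic-high cell A1 274 and 101, without G1 242 genes above, and without A2 98 genes below. Of the 161 genes 160 were protein-coding, and of the 62 genes 56.

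The genes of G2 and mitosis other than the 8 of the score stood out from the rest of the transcriptome. On 8 lists of such genes, 112 of 115 members passed the filter on level, 92 were at least 2-fold higher, none was 2-fold lower, and 44 did not overlap between the sides. Over all genes tested the shares higher, lower and above without overlap were 18.3%, 8.96% and 1.92%. Counts of the single lists below are read beside these shares. The median log2 ratio of the 112 members was 2.28, against 0.25 for all genes tested. The filter could pass a member on the strength of the mitotic-high cells alone, so these counts describe the lists and are not evidence beyond the score itself. The median was between 1.92 and 2.59 when any single cell was left out.

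**Figure D2:**
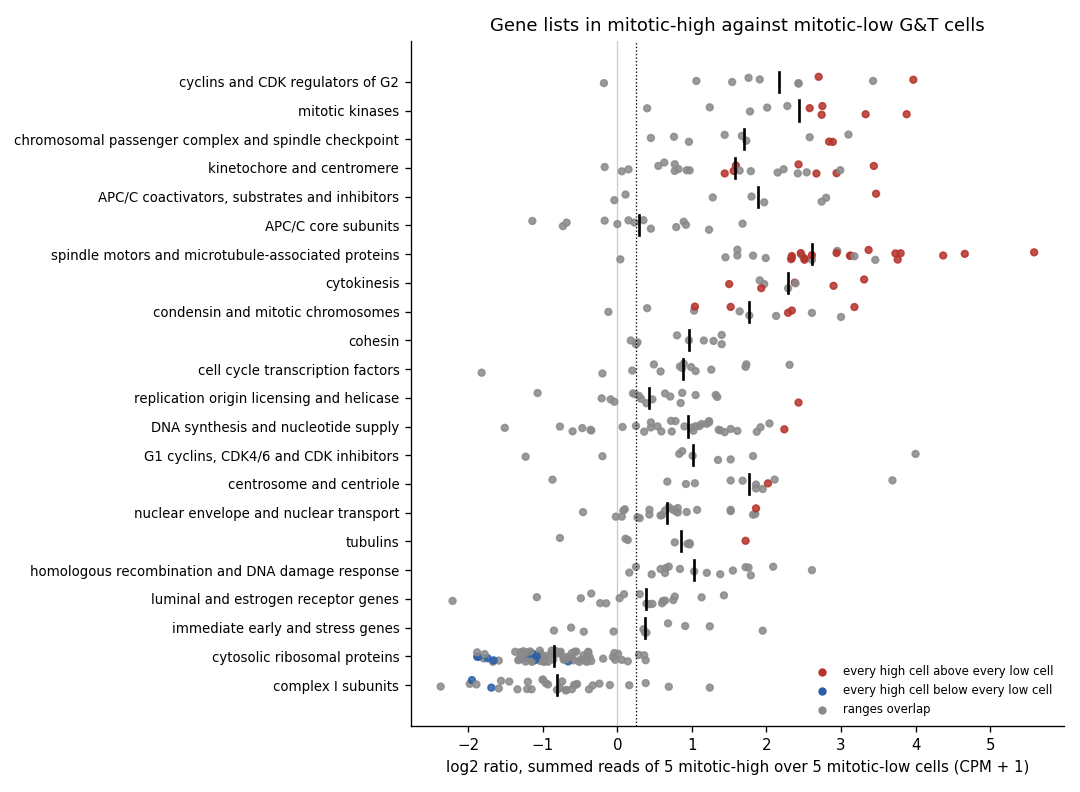
Log2 ratio of summed reads in the 5 mitotic-high over the 5 mitotic-low G&T cells for each measured member of the gene lists, with a black bar at the median of a list, a grey line at 0 and a dotted line at the median of all genes tested (0.25). Red points are genes in which every mitotic-high cell lies above every mitotic-low cell, blue points the reverse, and grey points overlap; the lists of spindle motors (2.61) and mitotic kinases (2.43) have the highest medians, and the ribosomal proteins (-0.85) and complex I subunits (-0.81) lie to the left.

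Among spindle motors and microtubule-associated proteins 27 of 28 members were at least 2-fold higher and 17 did not overlap, with a median log2 ratio of 2.61. KIF20A (ENSG00000112984, chr5:138178719-138187723), a kinesin of the central spindle and of cytokinesis, had 66.0, 43.4, 141, 91.2 and 156 CPM in the mitotic-high cells and 0, 1.05, 0, 0 and 6.0 CPM in the mitotic-low cells. Its summed level was 97.6 CPM (95% Poisson interval 87.8 to 108) against 1.05 CPM (0.341 to 2.45), a log2 ratio of 5.59. It was also at 0 in the middle cell C1.

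KIF14 (ENSG00000118193, chr1:200551497-200620751), a kinesin needed to finish cytokinesis, had 45.7, 90.5, 178, 233 and 302 CPM in the mitotic-high cells and 0, 3.14, 1.04, 6.96 and 24.0 CPM in the mitotic-low cells, a log2 ratio of 4.66. FAM83D (ENSG00000101447, chr20:38926312-38953106), which helps to align chromosomes on the spindle, had 137, 178, 167, 283 and 249 CPM against 6.86, 3.14, 0, 12.9 and 27.0 CPM, a log2 ratio of 4.37. TACC3, a protein that stabilises spindle fibres, had 49.5, 33.5, 194, 202 and 333 CPM against 0, 19.9, 2.07, 10.9 and 27.0 CPM, a log2 ratio of 3.80. In all 4 genes D1 was the highest of the mitotic-low cells. The middle cell C1 had KIF14 at 83.7 CPM and TACC3 at 75.5 CPM, within the mitotic-high range, and FAM83D at 16.3 CPM, within the mitotic-low range. STMN1, a protein that takes microtubules apart, was the exception on the list, with a log2 ratio of 0.04.

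Of 10 measured mitotic kinases outside the score 9 were at least 2-fold higher, 5 did not overlap, and the median was 2.43. BUB1 (ENSG00000169679), a kinase of the spindle checkpoint, had 112, 156, 191, 181 and 114 CPM in the mitotic-high cells and 0, 4.18, 6.22, 16.9 and 25.5 CPM in the mitotic-low cells, a log2 ratio of 3.88. AURKB, the kinase of the chromosomal passenger complex, had 239.8, 212, 229, 260.1 and 254 CPM, a narrow band, against 0, 16.7, 12.4, 7.96 and 109 CPM. The others without overlap were PLK4, which starts centriole duplication (log2 ratio 2.75), MELK (2.74) and TTK, the checkpoint kinase MPS1 (2.58). VRK1 was the member of this list within 2-fold, at 0.40.

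Of 10 measured cyclins and regulators of CDK1 9 were at least 2-fold higher and 2 did not overlap, with a median of 2.17. CCNB1IP1, a ligase that binds cyclin B1, was the other member, at -0.18. CCNF (ENSG00000162063, chr16:2429394-2458854), cyclin F, which directs the destruction of other proteins rather than a kinase, had 265, 165, 453, 438 and 401 CPM against 33.4, 19.9, 1.04, 0.995 and 57.0 CPM, a log2 ratio of 3.97. CCNA2, cyclin A2, had 204, 107, 345, 414 and 413 CPM against 0, 2.09, 0, 34.8 and 132 CPM, and its ranges overlapped through D1 and A1. PKMYT1, which holds CDK1 off by phosphorylation, had a log2 ratio of 2.70, and CDC25C, which removes that phosphate, 2.43. CKS2, a small subunit of CDK complexes, had a log2 ratio of 1.54.

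At the kinetochore and centromere 14 of 24 measured members were at least 2-fold higher, 7 did not overlap, and the median was 1.57. CENPA, the histone H3 variant that marks the centromere, had 38.1, 42.1, 53.2, 50.9 and 48.5 CPM in the mitotic-high cells and 0, 3.14, 0, 0 and 19.5 CPM in the mitotic-low cells, a log2 ratio of 3.44. CENPE, the kinetochore motor, followed at 2.94 and SPC24 of the NDC80 complex at 2.67. SKA1, which couples kinetochores to microtubules, had a log2 ratio of 2.99 with overlapping ranges. On the list of the chromosomal passenger complex and spindle checkpoint 7 of 10 were at least 2-fold higher and 2 did not overlap, with a median of 1.70. These 2 were CDCA8, or borealin, at 2.89 and SGO2, a protector of centromeric cohesin, at 2.84, while INCENP, the scaffold of the complex, reached 3.10 and MAD2L1 of the checkpoint 2.58 with overlap.

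All 9 cytokinesis genes were at least 2-fold higher, 5 without overlap, and the median was 2.29. CIT, citron kinase of the midbody, had 134, 213, 272, 276 and 285 CPM against 0, 0, 35.3, 24.9 and 73.5 CPM, a log2 ratio of 3.31. SHCBP1 followed at 2.90, DEPDC1B at 2.39 and RACGAP1, a subunit of centralspindlin, at 2.38. Of 13 condensin and chromosome genes 11 were at least 2-fold higher and 5 did not overlap, with a median of 1.77. MKI67 (ENSG00000148773, chr10:128096659-128126423), which coats mitotic chromosomes and is stained as Ki-67 to mark cycling cells, had 712, 566, 1051, 906 and 942 CPM against 0.857, 133, 31.1, 100.5 and 256 CPM, a log2 ratio of 3.18. The condensin subunits NCAPG, NCAPG2 and SMC4 had log2 ratios of 3.00, 2.61 and 2.34. HMGB2, a chromatin protein, had 312, 507, 515, 404 and 624 CPM against 167, 272, 129.7, 35.8 and 244 CPM, a log2 ratio of 1.52 without overlap.

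The APC/C itself was different from its targets. Of 8 measured coactivators, substrates and inhibitors 6 were at least 2-fold higher and 1 did not overlap, with a median of 1.88, whereas of 14 core subunits 2 were higher and 1 lower, with a median of 0.29, next to that of all genes. CDCA3, a substrate that promotes mitotic entry, had a log2 ratio of 3.47, ESPL1, or separase, 2.80, CDCA5, or sororin, 2.74 and the coactivator CDC20 1.97. The core subunits at the ends of their list were ANAPC10 at 1.68, CDC27 at 1.23, ANAPC1 at 0.92 and ANAPC15 at -1.14. Under TMM factors the core median was 0.05 and per ERCC read it was 0.83.

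PTTG1, or securin, the inhibitor of separase, and GMNN were the members of this list within 2-fold. GMNN had a log2 ratio of 0.11 with overlapping ranges. PTTG1 had 265, 289, 722, 289.6 and 270.2 CPM in the mitotic-high cells and 6.86, 141, 1014, 583 and 48.0 CPM in the mitotic-low cells, a log2 ratio of -0.04. Cells H1 and B1 had the high values of the lower side, and H1 lay above every mitotic-high cell. BIRC5, or survivin of the chromosomal passenger complex, was also high in H1 and B1, with 382, 525, 669, 791 and 603 CPM against 9.43, 131, 529, 669 and 186 CPM. In H1 CCNB1 at 244 CPM, CCNB2 at 208 CPM and PTTG1 at 1014 CPM stood beside CDK1 at 1.04 CPM, CCNA2 at 0 and MCM2 at 0.

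The mitotic-low cells differed from each other in the genes of the score. Over the 4 genes TOP2A, CDK1, CENPF and UBE2C the mean log2(CPM + 1) of D1 was 8.68 and that of C1 8.52, near the mitotic-high range of 9.76 to 10.83, while over CCNB1, CCNB2, AURKA and PLK1 they had 4.04 and 4.41. H1 and B1 were the other way round, with 5.53 and 6.11 over the first 4 genes and 6.80 and 6.25 over the others. D2 and E2 had 5.53 and 6.80 over the first 4 genes and 3.44 and 4.19 over the others. In every mitotic-high cell the first mean exceeded the other by 2.02 to 2.97. The groups of 4 genes were formed after these values were seen.

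**Figure D3:**
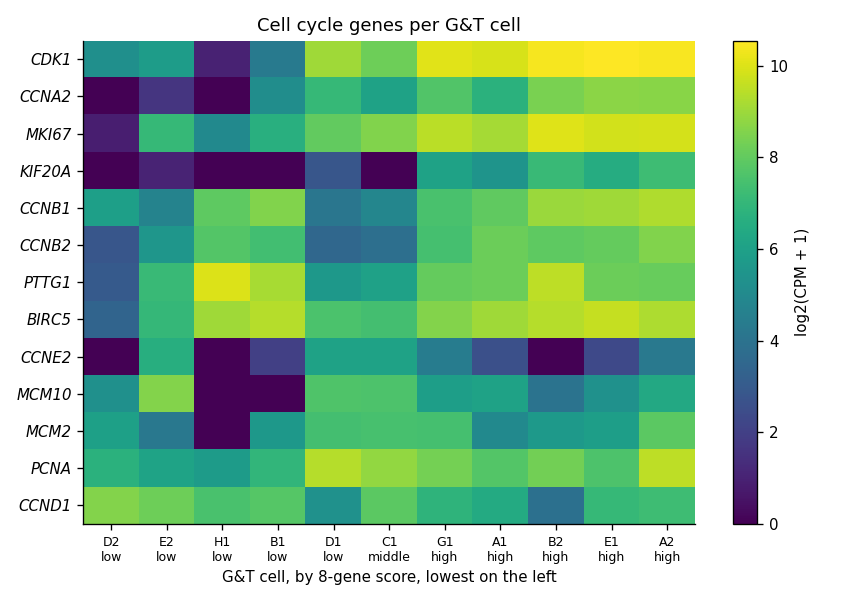
Log2(CPM + 1) of 13 cell cycle genes in the 11 scored G&T cells, with cells in ascending order of the score from left to right. H1 and B1 are bright for CCNB1, CCNB2, PTTG1 and BIRC5 and dark for CDK1, MCM10 and CCNE2, whereas D1 and C1 are bright for PCNA, MCM2 and CDK1 and dark for CCNB2 and KIF20A.

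Genes of DNA replication had smaller ratios than those of mitosis and varied widely among the mitotic-low cells. Over 52 measured genes of origin licensing and DNA synthesis the median log2 ratio was 0.73, against 0.25 for all genes, and 20 were at least 2-fold higher, 2 lower and 2 without overlap. The mean log2(CPM + 1) of these genes was 6.62, 6.10, 6.02, 5.96 and 6.59 in the mitotic-high cells and 4.66, 5.40, 3.14, 4.33 and 7.05 in the mitotic-low cells, with 6.64 in C1. D1 had the highest value of the 11 cells and H1 the lowest, so the mitotic-low cells spanned the whole range. For the G2 and mitosis lists the same mean was 6.80, 6.58, 7.48, 7.27 and 7.60 against 2.87, 4.19, 3.79, 4.46 and 6.27.

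**Figure D4:**
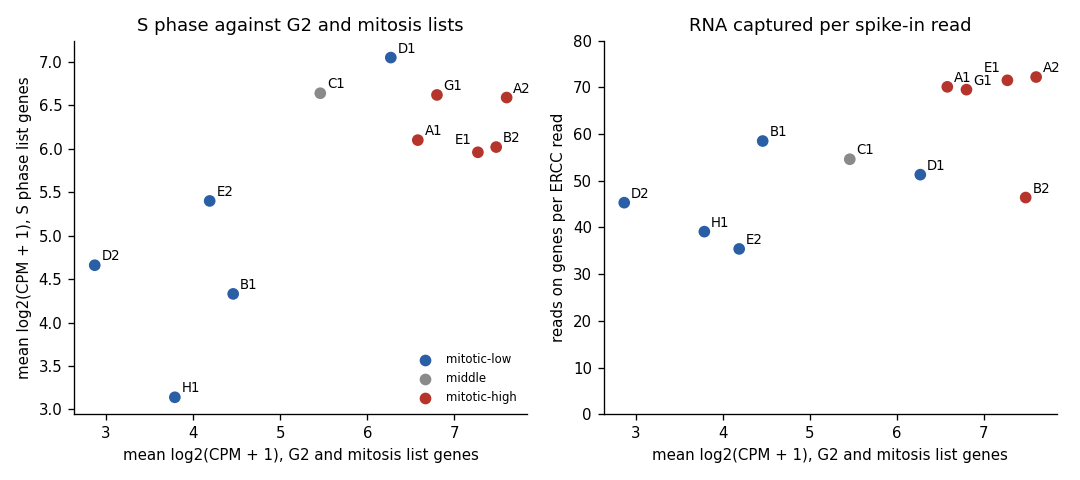
Left, mean log2(CPM + 1) of the S phase lists against that of the G2 and mitosis lists; right, reads on genes per ERCC read against the G2 and mitosis lists, 1 point per scored G&T cell. The mitotic-high cells form a group at 6.58 to 7.60 on the horizontal axis, while D1 has the highest S phase value (7.05) and H1 the lowest (3.14); on the right B2 (46.4) lies apart from the other mitotic-high cells (69.5 to 72.2).

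Of 18 licensing and helicase genes 4 were at least 2-fold higher and 1 lower, with a median of 0.43, shares near the 18.3% and 8.96% of all genes tested. GINS1, a subunit of the replicative helicase, had 132, 108, 115, 122 and 129 CPM in the mitotic-high cells against 20.6, 33.5, 0, 11.9 and 52.5 CPM, a log2 ratio of 2.43 without overlap. CDC45 and ORC6 had 1.34 and 1.32, MCM2 of the MCM ring 1.05, and MCM10, which activates the helicase, -1.07. MCM10 was at 379.7 CPM in E2 and 202 CPM in D1 and at 0 in H1 and B1, and its ratio was 0.18 without E2. Of 34 genes of DNA synthesis 16 were at least 2-fold higher and 1 lower, with a median of 0.95. LIG1, which joins Okazaki fragments, led at 2.24 without overlap, followed by RRM2 at 2.04, TYMS at 1.92 and POLA2 at 1.87, while the sliding clamp PCNA was at 1.05.

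CCNE2, cyclin E2 of the entry into S phase, was the lower one. It had 20.3, 4.96, 0, 4.02 and 18.4 CPM in the mitotic-high cells and 0, 98.3, 0, 2.98 and 67.5 CPM in the mitotic-low cells, with 67.4 CPM in C1, a log2 ratio of -1.51 that rested on E2 and D1. Among 14 measured cell cycle transcription factors 5 were at least 2-fold higher and 1 lower, none without overlap. LIN54, the DREAM subunit that binds the CHR, had a log2 ratio of 2.31, FOXM1 1.73, MYBL1 1.72 and MYBL2 1.26. E2F3 had -1.82, from 3.81, 3.72, 0, 18.8 and 7.87 CPM against 24.9, 5.23, 16.6, 42.8 and 52.5 CPM.

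Of 9 measured G1 cyclins, CDKs and CDK inhibitors 5 were at least 2-fold higher and 1 lower, with a median of 1.01. CCND1, cyclin D1, was at 115, 86.7, 13.7, 134 and 155 CPM in the mitotic-high cells and 389, 296, 182, 219.8 and 39.0 CPM in the mitotic-low cells, a log2 ratio of -1.23, and all but D1 of the mitotic-low cells lay above the mitotic-high range. CDKN2D, the inhibitor p19 of CDK4 and CDK6, had 1.27, 23.5, 12.2, 32.2 and 72.1 CPM against 0, 3.14, 1.04, 0 and 0 CPM, a log2 ratio of 4.00. CDKN1B, p27, had a log2 ratio of 1.82, CDKN2C 1.52 and CCND3 1.35. CDKN1A, p21, had 1.01, with 164, 71.9, 0, 0 and 57.7 CPM against 4.29, 52.3, 7.26, 33.8 and 70.5 CPM, so its highest and its lowest values were both on the upper side, and with the mean of log2(CPM + 1) of single cells the value was -0.61.

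Lists of cohesin, the centrosome and the nuclear envelope had medians from 0.66 to 1.77. Of 9 cohesin genes 4 were at least 2-fold higher, with a median of 0.96, led by STAG1 at 1.40, RAD21, which is cut to separate sister chromatids, at 1.40, SMC3 at 1.29 and STAG2 at 1.16. Of 12 centrosome genes 9 were at least 2-fold higher, with a median of 1.77, from CEP192 at 3.69, CNTROB at 2.11 and PCNT at 2.02 to CENPJ at 1.95, and PCNT, the scaffold of the material around the centrioles, did not overlap. Of 24 genes of the nuclear envelope and transport 6 were at least 2-fold higher, a share not far from the 18.3% of all genes tested. Of these 24 genes 1 did not overlap, and the median was 0.66. KPNA2, importin alpha 1, had 566, 1019.7, 796, 1142 and 771 CPM against 228, 91.0, 145, 437 and 288 CPM, a log2 ratio of 1.86 without overlap, beside RANGAP1 at 1.85, TMPO at 1.82 and NUP107 at 1.52.

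Tubulins, the building blocks of the spindle, were within 2-fold in 7 of 8 cases, with a median of 0.85. The exception was TUBB6 at 1.72, which did not overlap, while TUBA1A, TUBA1C and TUBB were at 0.97, 0.97 and 0.94. Of 17 genes of homologous recombination and the damage response 9 were at least 2-fold higher and none lower, with a median of 1.03, led by BRIP1 at 2.61, FANCI at 2.09, RAD51AP1 at 1.79 and FANCD2 at 1.76.

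Luminal genes stayed near the median of all genes in G&T. Of 19 measured members 2 were at least 2-fold higher and 2 lower, beside 18.3% and 8.96% of all genes tested. The median of the list was 0.39. ESR1, the estrogen receptor, had 128, 178, 223, 692 and 161 CPM in the mitotic-high cells and 83.1, 49.2, 75.7, 477 and 400.3 CPM in the mitotic-low cells, a log2 ratio of 0.43, and GATA3, a luminal transcription factor, had -0.49. The 2 lower genes were the secreted trefoil factors TFF1 at -2.21 and TFF3 at -1.08, and the 2 higher were ITGA6 at 1.43 and FOXA1 at 1.13. TFF1 rested on H1, at 1872 CPM, since the other 4 mitotic-low cells had 0 to 216 CPM and the mitotic-high cells 0 to 339 CPM. Of 11 immediate early and stress genes 2 were at least 2-fold higher, a share near the 18.3% of all genes tested, with TXNIP at 1.95 and GADD45B at 1.24, and the median was 0.37, with DNAJB1 at 0.91 and IER2 at -0.85.

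The 12 protein-coding genes with the largest ratios among those without overlap included 4 of the lists, KIF20A, KIF14, FAM83D and CCNF. The largest was ARHGEF39 (ENSG00000137135), with 184, 52.0, 108, 71.1 and 57.7 CPM in the mitotic-high cells and 2.98 CPM in B1 alone on the lower side. With 355 reads against 3 its fold was 149.7, with a counting interval of 50.8 to 729. PIF1 (ENSG00000140451), a DNA helicase, had 10.1, 64.4, 85.1, 168 and 76.1 CPM against 9.95 CPM in B1 and 0 in the other mitotic-low cells, a log2 ratio of 4.70. PIMREG, a protein of the mitotic chromosome, had a log2 ratio of 4.28.

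H1-4, a linker histone whose main transcripts end in a stem-loop and lack a poly(A) tail, had 50.7, 49.6, 18.2, 20.1 and 24.9 CPM against 4.50 CPM in D1 and 0 elsewhere, a fold of 53.1 with an interval of 17.8 to 261. CDYL2 had no read in any mitotic-low cell and 20.3, 4.96, 13.7, 13.4 and 61.6 CPM in the mitotic-high cells, at least 36.3-fold higher when 3 reads are allowed over the lower side. The others were CDR2 at a log2 ratio of 4.37, EME1, a subunit of a DNA junction nuclease, at 3.99 (fold 39.6, interval 13.2 to 196) and TAF5 of the general transcription factor TFIID at 3.98. CDR2 had 2.62 CPM in A2 and 33.0 to 68.4 CPM in the other mitotic-high cells. The middle cell C1, which was left out, had CDYL2 at 26.5 CPM and TAF5 at 20.4 CPM, within the mitotic-high range. EME1 was at 76.6 CPM in C1, above every mitotic-high cell, whereas CDR2 was at 3.06 CPM and H1-4 and PIF1 were at 0. Separation of the first 3 of these genes therefore holds only with C1 left out or placed with the mitotic-high cells. ARHGEF39, KIF20A, PIMREG, EME1 and TAF5 overlap other protein-coding genes in the annotation, and since the strand setting of the counting is not given, reads in the overlaps are uncertain.

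Promoters of the late genes shared short sequences that the score did not use. In the 300 bases from 250 before to 50 after the RefSeq start (GRCh38.p14), TTTGAA on either strand, the core of the CHR, was found in 54 of 93 promoters of the G2 and mitosis lists (58.1%), in 9.78% of 6840 promoters of genes tested and in 15.4% of all 27305 promoters. CCAAT on either strand was found in 67.7% of the list promoters, 38.3% of those tested and 35.7% of all. Both were present in 43.0%, 4.46% and 6.08%. Among promoters of the 161 genes above in every mitotic-high cell TTTGAA was present in 45 of 133 (33.8%), and in 19 of 96 (19.8%) once the list genes were removed. Among promoters of the 62 genes below it was present in 2 of 49 (4.08%).

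The S phase lists differed in the same windows. TTTGAA was present in 1 of 43 promoters (2.33%), CCAAT in 58.1%, and GCGCGAAA on either strand, a form of the E2F site, in 5 of 43 (11.6%) against 1 of 93 (1.08%) on the G2 and mitosis lists, 1.08% of genes tested and 0.546% of all promoters. A match is a description of the sequence and not of a bound site. Of the 8 genes of the score 6 were in the table, 5 of them with both TTTGAA and CCAAT.

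The last 130 bases before the start are shown for 8 genes above in every mitotic-high cell that hold both sequences there, with both sequences in capitals on either strand, so that CCAAT can also stand as its complement, written 5′ to 3′ on the strand of the gene. PIF1 is on chr15:64825648-64825777 (minus), CCNF on chr16:2429317-2429446 (plus), CENPA on chr2:26785926-26786055 (plus), CDCA8 on chr1:37692386-37692515 (plus), KIF23 on chr15:69414219-69414348 (plus), KIF18A on chr11:28108157-28108286 (minus), MKI67 on chr10:128126424-128126553 (minus) and KPNA2 on chr17:68035605-68035734 (plus).
PIF1: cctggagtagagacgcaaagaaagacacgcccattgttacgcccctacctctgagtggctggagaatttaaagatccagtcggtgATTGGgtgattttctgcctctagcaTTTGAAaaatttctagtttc
CCNF: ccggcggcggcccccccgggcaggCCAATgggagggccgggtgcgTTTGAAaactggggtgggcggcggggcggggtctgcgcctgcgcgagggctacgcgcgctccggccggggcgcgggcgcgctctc
CENPA: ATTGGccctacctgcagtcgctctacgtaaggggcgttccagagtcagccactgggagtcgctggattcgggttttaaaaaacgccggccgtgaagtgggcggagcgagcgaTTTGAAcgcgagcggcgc
CDCA8: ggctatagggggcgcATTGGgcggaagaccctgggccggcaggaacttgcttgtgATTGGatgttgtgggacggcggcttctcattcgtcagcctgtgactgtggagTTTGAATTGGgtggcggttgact
KIF23: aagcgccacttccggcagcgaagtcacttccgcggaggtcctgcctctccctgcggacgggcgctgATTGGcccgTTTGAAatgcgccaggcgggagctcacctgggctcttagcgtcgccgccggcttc
KIF18A: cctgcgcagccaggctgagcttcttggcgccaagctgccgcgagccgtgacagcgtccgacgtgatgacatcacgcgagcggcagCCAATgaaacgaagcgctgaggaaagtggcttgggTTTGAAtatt
MKI67: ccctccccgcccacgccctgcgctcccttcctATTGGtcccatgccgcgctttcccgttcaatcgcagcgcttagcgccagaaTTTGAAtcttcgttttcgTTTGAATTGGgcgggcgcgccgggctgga
KPNA2: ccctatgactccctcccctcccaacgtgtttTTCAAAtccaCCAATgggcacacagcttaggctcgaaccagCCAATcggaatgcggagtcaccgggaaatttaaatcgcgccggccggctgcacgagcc

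In PIF1, CENPA, CDCA8, KIF18A and MKI67 the TTTGAA lies close to the start with a CCAAT box, or its complement, upstream of it. In CDCA8 and MKI67 a TTTGAA and a complement of CCAAT share 1 base. For contrast, the same windows of the replication genes MCM6 (chr2:135876444-135876573, minus), MCM7 (chr7:100101398-100101527, minus) and POLA2 (chr11:65261832-65261961, plus) hold no TTTGAA, and GCGCGAAA or its complement is in capitals, beside the complement of CCAAT in MCM6 and MCM7.
MCM6: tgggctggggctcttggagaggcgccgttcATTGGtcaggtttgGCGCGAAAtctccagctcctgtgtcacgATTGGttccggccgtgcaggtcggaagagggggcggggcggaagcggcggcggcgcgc
MCM7: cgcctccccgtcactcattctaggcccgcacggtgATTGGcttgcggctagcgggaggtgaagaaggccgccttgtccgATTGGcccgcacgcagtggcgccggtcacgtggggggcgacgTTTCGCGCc
POLA2: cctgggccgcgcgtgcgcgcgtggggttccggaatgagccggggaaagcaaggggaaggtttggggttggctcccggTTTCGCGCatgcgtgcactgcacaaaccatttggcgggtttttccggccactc

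The log2 ratios of these 3 genes were -0.21, 0.64 and 1.87.

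None of the 62 genes below in every mitotic-high cell was on a list of the cell cycle, and none of those lists had a median below 0. The 12 smallest ratios without overlap belonged to ACVR2A, IDH3G, TRIM47, RNF8, SPEF2, LRRN3, MYRFL, TMEM256, MTRES1, COMMD6, MIX23 and MICOS10, from -4.05 to -2.35. ACVR2A (ENSG00000121989), an activin receptor, had no read in any mitotic-high cell and 7.71, 7.32, 24.9, 25.9 and 12 CPM in the mitotic-low cells, so it was at least 19.5-fold lower when 3 reads are allowed over the upper side. IDH3G, a subunit of mitochondrial isocitrate dehydrogenase, had 0, 0, 1.52, 5.36 and 3.93 CPM against 19.7, 42.9, 63.3, 53.7 and 45.0 CPM, a log2 ratio of -3.84, and was at 0 in C1. TRIM47 had 1 read in the mitotic-high cells and 70 in the mitotic-low cells, 55.3-fold lower with an interval of 9.61 to 2216. LRRN3, a neuronal leucine-rich repeat protein, had 22.8, 42.1, 27.3, 6.70 and 0 CPM against 243, 126, 203, 143 and 111 CPM, a log2 ratio of -3.05. ACVR2A, IDH3G, LRRN3, MYRFL, TMEM256 and MICOS10 overlap other protein-coding genes.

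Ribosomal proteins and subunits of complex I were lower as lists, and these lists were made after their values were seen. Of 76 measured cytosolic ribosomal proteins 30 were at least 2-fold lower, none was 2-fold higher, 9 did not overlap, and the median log2 ratio was -0.85. Over all genes tested 8.96% were at least 2-fold lower and 0.739% lay below without overlap. RPL26, of the large subunit, had 17.8, 23.5, 39.5, 21.5 and 21.0 CPM in the mitotic-high cells and 109, 132, 93.4, 67.6 and 40.5 CPM in the mitotic-low cells. Across the 76 genes the mean log2(CPM + 1) was 9.45 to 9.85 in mitotic-high and 9.73 to 10.7 in mitotic-low cells, and D2, E2 and H1 had the highest values. Of 33 complex I subunits of the respiratory chain 13 were at least 2-fold lower and 1 higher, with a median of -0.81, and of 72 mitochondrial ribosomal proteins 11 were lower and 1 higher, with a median of -0.32. Per ERCC read these medians were -0.30, -0.27 and 0.23, and that of all genes was 0.79, so the last list changed sign with the scaling and stayed below the median of all genes, and with TMM factors they were -1.10, -1.06 and -0.57. Lists added in the same way were 13 protein-coding genes of the mitochondrial genome, with a median of -0.25, and 5 linker histones, with a median of 0.30 and 2 members at least 2-fold higher.

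The ratios differed with transcript length. The 56 protein-coding genes below had a median longest transcript of 2184 bases, the 160 above 3735 bases and all 8105 tested 3996 bases. The median log2 ratio was -0.75 for 228 genes of up to 1000 bases, 0.03 for those up to 2000, 0.28 up to 4000, 0.34 up to 8000 and 0.41 beyond. In Takara cells split by the same rule the medians of these classes lay between -0.14 and 0.01. The part of length, library size or read quality in the lower genes was not tested.

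Takara and NEB cells, which the G&T split did not use, were split by the same 8 genes into the 5 highest and 5 lowest of the 11 cells that passed the thresholds in each protocol. The split in Takara lay between scores of 6.64 and 8.02, and that in NEB between 4.29 and 5.07. The filter in either protocol could pass a gene on the strength of its high cells alone. The shares that follow therefore describe the genes and are not evidence beyond the score. Of the 161 genes above in every mitotic-high G&T cell 150 passed the filter in Takara, and 68 of them (45.3%) were at least 2-fold higher there, against 6.53% of the 7263 genes tested in both. These 68 were 14.3% of all genes 2-fold higher in Takara. Without the G&T cell D1, 460 genes lay above and 136 of them were at least 2-fold higher in Takara, against 68 of the 161. Both counts can only rise when a cell is left out.

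Most of the shared genes were on the lists. Of the 44 genes above in G&T that belong to the G2 and mitosis lists 42 (95.5%) were at least 2-fold higher in Takara. Of these 44 genes 29 (65.9%) did not overlap there either, against 1.89% of all genes tested in both. The 2 list genes within 2-fold, H2AZ1 and NCAPD2, had log2 ratios of 0.93 and 0.86. Of the 106 others 26 (24.5%) were at least 2-fold higher and 9 (8.49%) did not overlap. Those 26 included PIF1 (log2 ratio 5.40 in Takara), PIMREG (4.40), KNSTRN (4.27), GAS2L3 (4.15), ARHGEF39 (2.34), H1-4 (2.35), TAF5 (1.88) and EME1 (1.81). TAF5 had a log2 ratio of -3.44 in NEB, the opposite direction. CDR2 and CDYL2, with log2 ratios of 4.37 and 4.58 in G&T, did not pass the filter in Takara.

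**Figure D5:**
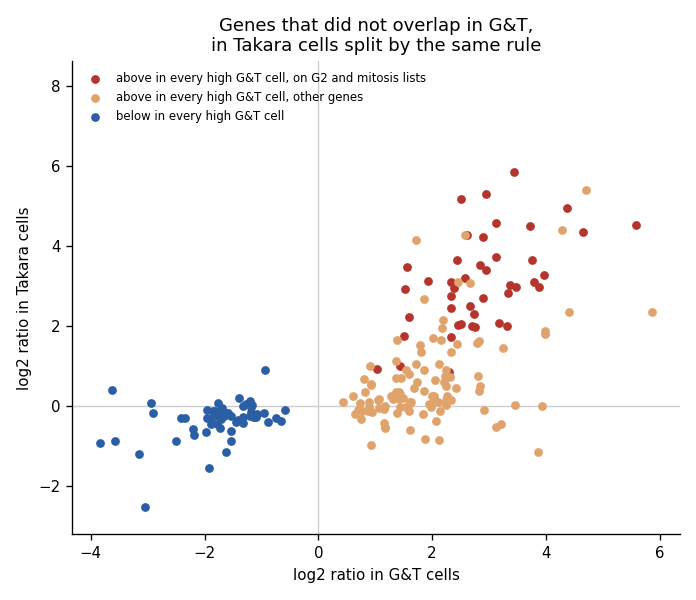
Log2 ratio in Takara against that in G&T for genes in which the 5 mitotic-high and 5 mitotic-low G&T cells do not overlap and which passed the filter in both protocols, 1 point per gene. Genes of the G2 and mitosis lists (red) are all above 0 in Takara, other genes above in G&T (orange) gather near 0 with a median of 0.25, and genes below in G&T (blue) have a median of -0.27.

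In NEB 123 of the 161 genes passed the filter and 69 (56.1%) were at least 2-fold higher, against 21.9% of 5760 genes tested in both, and these were 5.48% of all genes 2-fold higher there. Of 38 list genes 37 (97.4%) were at least 2-fold higher, and 4 (10.5%) did not overlap, against 0.503% of all genes tested in both. Of 85 others 32 (37.6%) were at least 2-fold higher and 12 (14.1%) at least 2-fold lower. Among all genes tested in both, 19.6% were at least 2-fold lower. Of the genes below, 58 passed the filter in Takara, where 9 (15.5%) had a ratio above 0, against 47.8% of all genes tested in both, and the median was -0.27. Of 53 in NEB 17 (32.1%) were above 0, against 50.8% of all, with a median of -0.21. Few passed 2-fold. Of the 58 in Takara 4 (6.90%) were at least 2-fold lower, against 4.31% of all, namely LRRN3 (-2.53), RRS1 (-1.54), SPEF2 (-1.19) and SDHAF4 (-1.14), and of the 53 in NEB 6 (11.3%) were, against 19.6% of all, while another 6 (11.3%) were at least 2-fold higher. For the ribosomal proteins no gene was 2-fold lower in Takara or NEB, where the medians were -0.24 and -0.14.

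Over the lists, the medians in G&T and Takara were 2.61 and 3.54 for spindle motors and microtubule-associated proteins, 2.43 and 2.74 for mitotic kinases, 2.29 and 2.94 for cytokinesis, 2.17 and 2.44 for cyclins and CDK regulators, and 1.57 and 1.79 for the kinetochore. For the S phase lists they were 0.73 and 0.66, whereas in NEB the median was -0.24, with 8 of 41 members at least 2-fold higher and 14 lower. For luminal genes they were 0.39 and -0.42, and -0.02 in NEB. In Takara 5 of 19 luminal genes were at least 2-fold lower and none higher, against 4.31% and 6.53% of genes tested in both. In NEB 5 of 16 were lower and 2 higher, against 19.6% and 21.9%. ESR1, at 0.43 in G&T, was at -1.30 in Takara and -1.49 in NEB, and GATA3, at -0.49, was at -1.01 and 0.19. The medians of the lists are read against different values. The median of all genes tested was 0.25 in G&T, and over genes also tested there it was -0.03 in Takara and 0.02 in NEB. PTTG1, at -0.04 in G&T, was at 1.77 in Takara and 2.69 in NEB, and BIRC5, at 0.96, was at 2.00 and 3.41. CDKN1B, at 1.82 in G&T, did not pass the filter in Takara or NEB.

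Cell cycle stages were also called with cyclone, from pairs of genes that did not include any of the 8. All 5 mitotic-high cells were called G2M, with scores of 0.828 to 1. Of the mitotic-low cells H1 was called G1, with a G1 score of 0.871 beside a G2M score of 0.598, and the other 4 were called S, as was C1. D1 and C1 had S scores of 0.992 and 0.962, D2 and E2 0.846 and 0.828, whereas B1 had 0.205. Every cell called S was so called because neither its G1 nor its G2M score reached the limit. In B1 these were 0.223 and 0.433. Calls of a stage from expression are labels for these patterns and not a measurement of DNA content.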

How the data were processed

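Count tables of single T47D cells prepared with G&T, Takara and NEB were used. Per the labels and methods, the authors trimmed reads in 2 rounds with Trim Galore, used STAR with the GRCh38 genome and deposited raw read counts per gene and cell, not normalized and without molecular identifiers. The annotation release and strand setting are not given in the sources used here. Names, positions and lengths came from GENCODE 44, matched by identifier (21 of 8392 genes tested had no match), and promoters from RefSeq.

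CPM was computed over reads on genes. Cells were kept with at least 1000 genes, at least 600000 reads, at most 30% mitochondrial and at most 25% ERCC reads. Reads of a side were summed, and 1 CPM was added before log2 ratios. Genes needed a mean of at least 10 CPM. Exact 95% Poisson intervals, and a limit of 3 reads for a count of 0, cover counting error only. No test was made, since no separate cultures are named and the cells were chosen by the values compared. The rule, the members and the 24 gene lists were chosen with earlier results of these data known, and the lists of ribosomal proteins, complex I, linker histones and the mitochondrial genome after the values were seen. Genes named are the 8 of the score, the 12 largest and 12 smallest ratios among protein-coding genes without overlap, up to 4 members per list by absolute ratio, and 18 listed by name. Members at or near 0 and exceptions were added after their values were seen. The steps were tested on simulated data with known changes. Alternatives covered combining, scaling, filter, pseudocount, cells, score and depth. TMM factors came from edgeR 4.0.16 and cyclone from scran 1.30.0, both under R 4.3.3 with seed 11. All other steps ran in Python 3.11.15, with intervals from scipy 1.17.1, tables in pandas 2.3.3, arrays in numpy 2.4.6 and plots by matplotlib 3.10.9.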

Additional observations from a re-analysis of the deposited data

Results flagged for a closer look

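Of 88 groups of 5 cells checked for a cell far from the others by Dixon's ratio, 9 held one. The usual chance rate of 1 in 20 assumes normally spread values and does not carry over to genes picked for not overlapping. Where 4 cells are at 0, any read in the other cell is flagged, as for TRIM47, ARHGEF39, PIF1 and H1-4. Among the mitotic-high cells B2 had 46.4 reads on genes per ERCC read, against 69.5 to 72.2 in the others. A1 had a mean log2(CPM + 1) of 6.01 over the APC/C coactivators, substrates and inhibitors, against 7.14 to 7.48. CDR2 was at 1.86 on the log2(CPM + 1) scale in A2 and at 5.09 to 6.12 in the others. TRIM47 was at 1.16 in A1 and at 0.00 in the other 4, and TMEM256 was at 0.00 in A2 and at 2.60 to 3.10 in the others.

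Among the mitotic-low cells D1 had a mean of 5.81 over the cyclins and CDK regulators of G2, against 2.95 to 3.74 in the others. ARHGEF39 was at 1.99 and PIF1 at 3.45 in B1 while both were at 0.00 in the other 4, and H1-4 was at 2.46 in D1 and at 0.00 in the other 4. Each of these last values rests on few reads.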

How the results depend on the processing

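No paired analysis was possible because the cells carry no number that pairs the sides. For genes at least 2-fold higher, 1533 as reported, the count was 3305 per ERCC read, 3231 at a minimum of 1 CPM, 444 at 50 CPM, 4381 with no filter, 3235 for the 3 highest against the 3 lowest cells and 2456 with all 13 cells scored. For genes at least 2-fold lower, 752 as reported, it was 1129 with TMM factors, 291 per ERCC read, 2231 at 1 CPM, 267 at 50 CPM and 2925 with no filter. Genes above in every mitotic-high cell, 161 (1.92% of genes tested) as reported, numbered 340 (4.05%) per ERCC read and 95 (2.78% of 3416) at 50 CPM. They numbered 1897 (22.6%) for 3 against 3 and 416 (4.96%) with 13 cells. Genes below, 62 (0.739%) as reported, were 15 (0.179%) per ERCC read, 39 (1.14%) at 50 CPM and 597 (7.11%) for 3 against 3. In the same order of settings as the genes above, those also 2-fold higher in Takara, 68 as reported, numbered 136, 38, 373 and 155. With 3 cells on a side fewer cells have to lie apart, so counts without overlap for 3 against 3 cannot be set against those for 5 against 5. The ratio of reads per ERCC read, 1.44 as reported, was 1.87 with 13 cells. Leaving out 1 cell gave 1347 to 2109 genes higher, 712 to 878 lower and ratios of 1.36 to 1.54. It also gave 187 to 460 above, 76 to 222 below and 68 to 136 shared with Takara, counts that this can only raise. It gave 90 to 95 genes of the G2 and mitosis lists higher and medians of 1.92 to 2.59 for these lists and 0.59 to 1.22 for the S phase lists. MCM10, at -1.07, was at 1.23 with the mean of log2(CPM + 1) and between -1.41, without B1, and 0.18, without E2, and CDKN1A, at 1.01, was at -0.61 with that mean. The cause was not tested. Ranking by scores scaled per gene gave the same sides.

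The labels name no separate cultures, so no value here measures the spread between cultures. Reads carry no molecular identifiers, and genes near 10 CPM rest on about 10 reads per cell. Each side sums 5 cells that were chosen by 8 genes. Counts of genes without overlap rise most when D1, next to the middle cell, is left out.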
